A study of Mus musculus with 11 samples.

Results

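Genes of the cell cycle and proliferation were followed in the skin of transplanted mice, in 3 groups that differed in the donor match and in the presence of mast cells. Members were row 2810417H13Rik, which RefSeq names Pclaf, and every gene of the panel whose symbol marks a cyclin of class A, B, D or E, a cyclin-dependent kinase or its inhibitor, a Cdc or Mcm gene, Mki67, Top2a or Birc5. Of 754 genes, 7 met this rule: Mcm5, Pclaf, Top2a, Ccnb2, Cdc20, Birc5 and Cdkn1a. All 7 were above the background of the negative control probes in all 11 mice and were among the 698 genes tested.

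The recipients received 850 cGy of radiation and an intravenous transplant of bone marrow cells and splenocytes, and skin of the nape was collected after 7 weeks. The 3 syngeneic and the 3 allo-WT mice were C57BL/6j recipients, whereas the 5 allo-MCd mice were mast cell-deficient B6.Cg-KitW-sh/HNihrJaeBsmGlliJ recipients. The allo-WT and allo-MCd groups received LP/J cells, and for the syngeneic group the labels give LP/J and the study's methods C57BL/6j donors. The W-sh allele lowers Kit, the stem cell factor receptor, in the mast cell lineage, and it also affects pigment cells, so that the allo-MCd and allo-WT recipients differed in more than mast cells. According to the methods all mice were female and young adult. From each mouse, 100 ng of RNA was counted without amplification on the NanoString Myeloid Innate Immunity panel. Nothing in the labels ties the mice to litters or transplant days, so p-values measure the spread between these mice.

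A dividing cell copies its DNA in S phase and separates the copies in M phase, and most of the genes described here are transcribed mainly during these phases. Separate families of regulators drive this wave, the E2F factors at the start of S phase and, later, complexes that act through CCAAT boxes and an element called the cell cycle genes homology region (CHR). Cdkn1a encodes p21, an inhibitor of cyclin-dependent kinases that p53 induces after DNA damage and that holds cells out of the cycle. In skin, the basal keratinocytes, the hair matrix and infiltrating lymphocytes are known sites of division.

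The sequences just upstream of 4 members are shown because these genes moved together and because their upstream sequence holds these elements in different combinations. They are RefSeq sequences of GRCm38.p6, taken from the 250 bases before the annotated transcript start, on the strand of the gene, and bases that lie inside the annotated gene are not printed. Capitals mark matches, on either strand, to the CCAAT box (CCAAT), the CHR (TTTGAA or TTCGAA) and an E2F motif (TTTCCCGC, TTTCGCGC, TTTGCCGC or TTTGGCGC). The Ccnb2 window lies at chr9:70421555-70421804 (minus strand), that of Cdc20 at chr4:118437344-118437593 (minus strand), that of Top2a at chr11:99024200-99024439 (minus strand) and that of Mcm5 at chr8:75109259-75109467 (plus strand).
Ccnb2: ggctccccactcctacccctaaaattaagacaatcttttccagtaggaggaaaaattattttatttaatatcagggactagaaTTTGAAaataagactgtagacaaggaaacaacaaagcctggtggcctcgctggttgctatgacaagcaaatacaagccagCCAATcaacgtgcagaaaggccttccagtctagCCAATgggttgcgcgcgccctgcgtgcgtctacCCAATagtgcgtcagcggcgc
Cdc20: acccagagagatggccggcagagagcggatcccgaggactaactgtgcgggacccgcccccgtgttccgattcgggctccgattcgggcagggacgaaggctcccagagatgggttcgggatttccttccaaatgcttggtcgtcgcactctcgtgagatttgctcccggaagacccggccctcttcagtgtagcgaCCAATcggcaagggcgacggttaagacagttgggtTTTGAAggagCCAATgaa
Top2a: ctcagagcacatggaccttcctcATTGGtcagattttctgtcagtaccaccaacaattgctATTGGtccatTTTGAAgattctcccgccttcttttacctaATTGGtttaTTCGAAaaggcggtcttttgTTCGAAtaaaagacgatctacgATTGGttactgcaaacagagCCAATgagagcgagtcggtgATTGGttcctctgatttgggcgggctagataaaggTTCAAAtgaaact
Mcm5: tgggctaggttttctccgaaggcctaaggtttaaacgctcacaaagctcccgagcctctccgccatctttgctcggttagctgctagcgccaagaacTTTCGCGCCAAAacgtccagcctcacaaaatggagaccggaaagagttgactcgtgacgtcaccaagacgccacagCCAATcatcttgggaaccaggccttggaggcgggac

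Ccnb2, Cdc20 and Top2a held both a CCAAT box and a CHR in the 250 bases, as did 6.02% of 32851 upstream windows of the same length. Top2a had 6 CCAAT boxes and 4 CHR matches, Ccnb2 had 3 and 1, and Cdc20 had 2 and 1. The Cdc20 CHR began 18 bases before the start, and that of Ccnb2 began 167 bases before it. Mcm5 held 2 overlapping E2F matches, in a stretch that began 153 bases before the start, and 1.86% of the windows had any such match. It had no CHR and 2 CCAAT boxes, the second within the part not printed. Pclaf had 2 CCAAT boxes, which brought the members with a CCAAT box to 5 of 7, against 33.8% of all windows, and the members with a CHR were 3 of 7, against 17.1%. Birc5 and both annotated starts of Cdkn1a had no match in this window. A match describes the letters only and is no evidence that a factor binds there.

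Whole counts recovered from the deposited values totalled between 831632 and 1460260 per mouse, and the lowest count of a member was 34, for Cdc20 in syngeneic mouse 1, with an exact Poisson interval at 95% of 23.5 to 47.5. Between mice within a group, no 2 samples were within sampling noise of each other. Allo-WT mouse 1 had the lowest total, the largest normalization factor (2.54) and 3975 counts of its strongest positive control, where the remaining mice had 17615 to 33547. The median gene lay between 401 and 456 normalized counts in syngeneic, between 465 and 555 in allo-WT and between 241 and 356 in allo-MCd mice. Differences are therefore given on the deposited scale and, where this changes a call or a direction, also with each mouse scaled to the same median gene (median scaling). The panel holds 1 of 6 keratinocyte markers (Cdh1), 4 of 6 fibroblast markers and no T cell marker of the list used, so the skin label was checked only through Cdh1 and the collagen genes Col1a2 and Col3a1, which were counted in every mouse.

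Mcm5 encodes a subunit of the helicase that opens DNA at replication origins. Its normalized counts were 254, 253 and 209.5 in syngeneic mice 1 to 3, 859, 880.2 and 517 in allo-WT mice 1 to 3, and 582, 680.4, 180, 587 and 258 in allo-MCd mice 1 to 5. All 3 allo-WT mice were above all syngeneic mice, while the allo-MCd mice spanned the range from below the lowest syngeneic to within the allo-WT mice. The means were 239 ± 25.6 (SD, n = 3), 752 ± 204 (SD, n = 3) and 457.5 ± 223 (SD, n = 5).

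Pclaf encodes a partner of the sliding clamp PCNA. It had 76.3, 171 and 132 normalized counts in syngeneic mice 1 to 3, 236, 362 and 327 in allo-WT mice and 525, 569, 132, 538 and 132 in allo-MCd mice 1 to 5. Of the 5 allo-MCd mice, 3 lay above the highest allo-WT mouse, and the other 2 lay below the lowest one, inside the syngeneic range. Its group means were 127 ± 47.6 (SD, n = 3), 308 ± 65.1 (SD, n = 3) and 379.5 ± 226 (SD, n = 5), in the same order.

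Top2a, the topoisomerase that untangles replicated chromosomes, had 367, 1128 and 762 normalized counts in syngeneic, 1772, 2764 and 1819 in allo-WT and 1656, 1960, 557, 1965 and 588 in allo-MCd mice, in the order of the mouse numbers. Syngeneic mouse 1 stood below the other 2 mice of its group, and no allo-WT mouse overlapped with them. In the allo-MCd group, 3 mice lay at or near the allo-WT values and mice 3 and 5 lay within the syngeneic range. The means were 752 ± 381 (SD, n = 3), 2118 ± 559 (SD, n = 3) and 1345 ± 716 (SD, n = 5).

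Among the genes of mitosis, Ccnb2 encodes cyclin B2, which activates the mitotic kinase. Its counts were 86.8, 167 and 127 in syngeneic, 639, 456 and 261 in allo-WT and 349, 414, 116, 391 and 179.6 in allo-MCd mice. The lowest allo-WT mouse was still above every syngeneic mouse, and 4 of the 5 allo-MCd mice were too. The group means were 127 ± 39.9 (SD, n = 3), 452 ± 189 (SD, n = 3) and 289.8 ± 134 (SD, n = 5).

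Cdc20 activates the ubiquitin ligase that starts the separation of the chromosomes. With 50.9, 107 and 51.8 counts in syngeneic, 193, 169.6 and 123 in allo-WT and 153, 157, 43.4, 164 and 85.2 in allo-MCd mice, it had the lowest recovered count of any member in a single mouse. Allo-MCd mouse 3 lay below the lowest syngeneic mouse and mouse 5 within the syngeneic range. The means were 69.9 ± 32.2 (SD, n = 3), 162 ± 35.7 (SD, n = 3) and 120.3 ± 53.3 (SD, n = 5).

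Birc5 encodes survivin, which acts in chromosome segregation and inhibits apoptosis. It had 70.3, 101 and 93.7 counts in syngeneic, 487, 322 and 204 in allo-WT and 194, 214, 66.1, 241 and 72.5 in allo-MCd mice. Here 3 of the 5 allo-MCd mice lay below the lowest allo-WT mouse, and mouse 3 lay below every syngeneic mouse. The means were 88.2 ± 15.9 (SD, n = 3), 338 ± 142 (SD, n = 3) and 157 ± 82.2 (SD, n = 5).

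Cdkn1a, the inhibitor, had 3320.5, 2836 and 3124 counts in syngeneic, 2112, 2048 and 3052 in allo-WT and 3636, 4009, 3868, 3466 and 3415 in allo-MCd mice. In contrast to the other 6 members its mean was lowest in allo-WT mice, and every allo-MCd mouse lay above all 6 mice of the other groups. The means were 3093 ± 244 (SD, n = 3), 2404 ± 562 (SD, n = 3) and 3679 ± 256 (SD, n = 5).

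**Figure D1:**
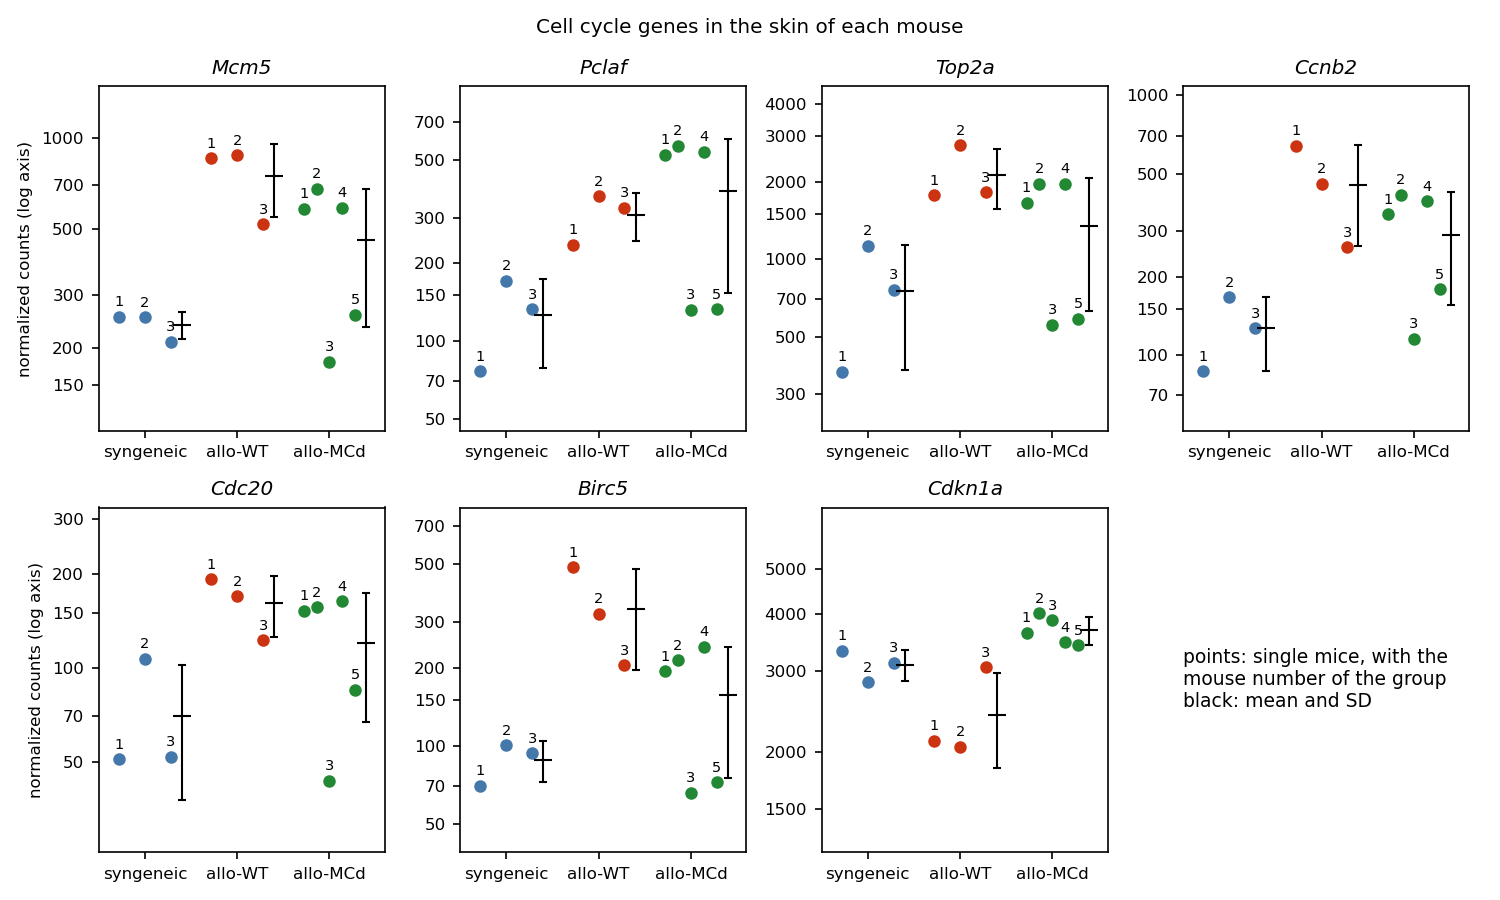
Normalized counts (log axis) of the 7 cell cycle genes in each mouse, with points for single mice numbered within their group and, in black, the mean and SD. For 6 genes allo-MCd mice 3 and 5 lie apart from mice 1, 2 and 4, whereas the 5 values of Cdkn1a lie between 3415 and 4009.

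The comparison of allo-WT with syngeneic mice asks which genes differ in skin when the graft is mismatched. In allo-WT skin 4 of the 7 members were called higher, at a log2 difference of 1.85 for Birc5 (SE 0.52, adjusted p = 0.0129), 1.78 for Ccnb2 (SE 0.50, adjusted p = 0.0129), 1.62 for Mcm5 (SE 0.46, adjusted p = 0.0137) and 1.61 for Top2a (SE 0.55, adjusted p = 0.0335; limma with Benjamini-Hochberg adjustment over 698 genes). Of all genes tested, 28.2% were called higher and 14.9% lower. Pclaf (1.33, SE 0.60, adjusted p = 0.0867 in limma) and Cdc20 (1.26, SE 0.50, adjusted p = 0.0573 in limma) did not pass the threshold. Cdkn1a was the only member with a negative difference, of -0.39 (SE 0.19, adjusted p = 0.109 in limma). For 6 of the 7, all but Cdkn1a, the allo-WT and syngeneic mice did not overlap, which held for 53.9% of the genes tested. The median difference over the 7 was 1.61, against 0.21 over all genes tested. By exact permutation, all 6 had p = 0.1, the smallest that 3 mice against 3 can give.

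Mcm5, the helicase gene, remained called when any 1 mouse was left out, while only 1 member was called without syngeneic mouse 1 and likewise without allo-WT mouse 1, in place of 4. Birc5 and Ccnb2 lost the call without either of these mice (adjusted p between 0.0504 and 0.0567 in limma), and Top2a also without syngeneic mouse 3 or allo-WT mouse 2 (adjusted p between 0.0568 and 0.132 over these 4). The methods' 3-group test called none of the 7 after adjustment (3 at an unadjusted p under 0.05), and under quantile normalization Birc5 (adjusted p = 0.0501 in limma) and Top2a (adjusted p = 0.0925 in limma) lost the call. Under median scaling Birc5 (1.60, adjusted p = 0.0383 in limma) and Ccnb2 (1.53, adjusted p = 0.0380 in limma) were called higher, beside 24.2% of all genes, while Mcm5 (1.36, adjusted p = 0.0511 in limma) and Top2a (1.35, adjusted p = 0.0932 in limma) lost the call. Cdkn1a was then called lower (-0.64, adjusted p = 0.0274 in limma), beside 27.4% of all genes. Leaving out allo-WT mouse 3, whose Cdkn1a count was inside the syngeneic range, also gave a called difference for Cdkn1a (-0.57, adjusted p = 0.0198 in limma).

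Some lists of cell type markers differed without overlap in this comparison, as 53.9% of all genes tested did. The summed counts of 6 macrophage and monocyte markers lay between 12732 and 15716 in syngeneic and between 20756 and 36954 in allo-WT mice, and those of 5 neutrophil markers between 475 and 705 and between 3896 and 133382. Most of the neutrophil sum in allo-WT mice came from S100a8 (1892 to 76492 counts) and S100a9 (1188 to 55154). Csf3r and Cxcr2 were also higher without overlap. Ly6g was above background in allo-WT mouse 1 (93.8 against 37.5) but near it in mice 2 (19.1 against 15.7) and 3 (20.4 against 20.7). The endothelial markers Cdh5 and Tek summed to 954 to 1541 in syngeneic and 385 to 481 in allo-WT mice. Also without overlap, 4 eosinophil markers summed to 103 to 120 in syngeneic and 223 to 1990 in allo-WT mice, although Epx and Prg2 singly overlapped. The muscle marker Des had 7814 to 12962 and 1970 to 5752 counts, again without overlap. Sums of the mast cell (3769 to 8866 against 2083 to 13956) and dendritic cell markers (276 to 373 against 271 to 387) overlapped. So did those of the fibroblast markers (83886 to 180112 against 11664 to 132551) and of the adipocyte markers, and Ms4a1, Cdh1 and Pf4. By histology the study reports that neither neutrophil nor eosinophil numbers differed significantly among its groups. None of the markers was at 0, and their part in the differences of the members was not tested. In whole skin, fewer cells of a type and less RNA per cell cannot be told apart.

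The comparison of allo-MCd with allo-WT mice asks what changes when the recipient lacks mast cells. Cdkn1a was higher in allo-MCd skin, by 0.64 on the log2 scale (SE 0.17, adjusted p = 0.00612 in limma), with no overlap between the groups and an exact permutation p of 0.0357, in 5 of 5 mice. Birc5 was lower, by a log2 difference of -1.21 (SE 0.46, adjusted p = 0.0395 in limma), with an exact permutation p of 0.107. Of all genes tested, 10.9% were called higher and 50% lower, and 55.9% did not overlap. The other 5 members did not pass the threshold: Mcm5 differed by -0.85 (SE 0.41), Top2a by -0.84 (SE 0.49), Ccnb2 by -0.70 (SE 0.45), Cdc20 by -0.56 (SE 0.44) and Pclaf by 0.03 (SE 0.54), with limma adjusted p-values between 0.0900 and 0.964. The median over the 7 members was -0.70, and over all genes tested it was -0.71, so the members as a list lay at the level of the typical gene of the panel.

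The Cdkn1a difference was called when any 1 mouse was left out and under the other settings tried, where it lay between 0.53 and 1.48. Under median scaling it was 1.48 (SE 0.19, adjusted p = 7.45e-05 in limma), and 35.7% of all genes were called higher on that scale. Birc5, in turn, was no longer called under median scaling, where it lay at -0.37 (adjusted p = 0.553 in limma). It also lost the call without allo-WT mouse 1 (-0.90), allo-WT mouse 2 (-1.20), allo-MCd mouse 3 (-0.95), allo-MCd mouse 5 (-0.98) or syngeneic mouse 3 (-1.21), at limma adjusted p-values between 0.0515 and 0.170. The differences of Ccnb2, Cdc20 and Top2a changed sign under median scaling, to 0.14, 0.28 and 0.01, none of them called. That of Mcm5 became -0.01 and that of Pclaf 0.87 on that scale, also not called. The summed counts of 6 mast cell markers lay between 100.2 and 621 in allo-MCd and between 2083 and 13956 in allo-WT mice, and those of the macrophage and monocyte markers between 3994 and 7638 and between 20756 and 36954. Neutrophil markers summed to 531 to 1151 in allo-MCd and 3896 to 133382 in allo-WT mice, and 4 eosinophil markers to 113 to 197 and 223 to 1990. The part of these cells in the Cdkn1a and Birc5 differences was not tested.

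Between allo-MCd and syngeneic mice, none of the 7 members was called in limma, with 2 at an unadjusted p under 0.05, and 4.73% of all genes were called higher and 36.8% lower. Voom on the recovered counts called none either. All 7 differences were above 0, from 0.25 for Cdkn1a (SE 0.17, adjusted p = 0.237 in limma) to 1.36 for Pclaf (SE 0.54, adjusted p = 0.0591 in limma). Their median was 0.76, whereas that of all genes tested was -0.59. Cdkn1a did not overlap between these groups, as was the case for 44.3% of all genes, and its exact permutation p was 0.0357. The exact permutation p of the other 6 was between 0.143 and 0.321.

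This comparison depended on single allo-MCd mice and on the scale. Without allo-MCd mouse 3, 4 members were called higher: Pclaf (1.66), Ccnb2 (1.37), Mcm5 (1.05) and Cdc20 (1.03), with limma adjusted p-values between 0.0185 and 0.0374, in a fit that called 39 of 698 genes higher and 247 lower. Without allo-MCd mouse 5, Pclaf alone was called (1.66, adjusted p = 0.0190 in limma). Under median scaling Pclaf (1.95, adjusted p = 0.0360 in limma), Ccnb2 (1.67, adjusted p = 0.0286 in limma) and Cdkn1a (0.84, adjusted p = 0.00915 in limma) were called higher, beside 14.2% of all genes.

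**Figure D2:**
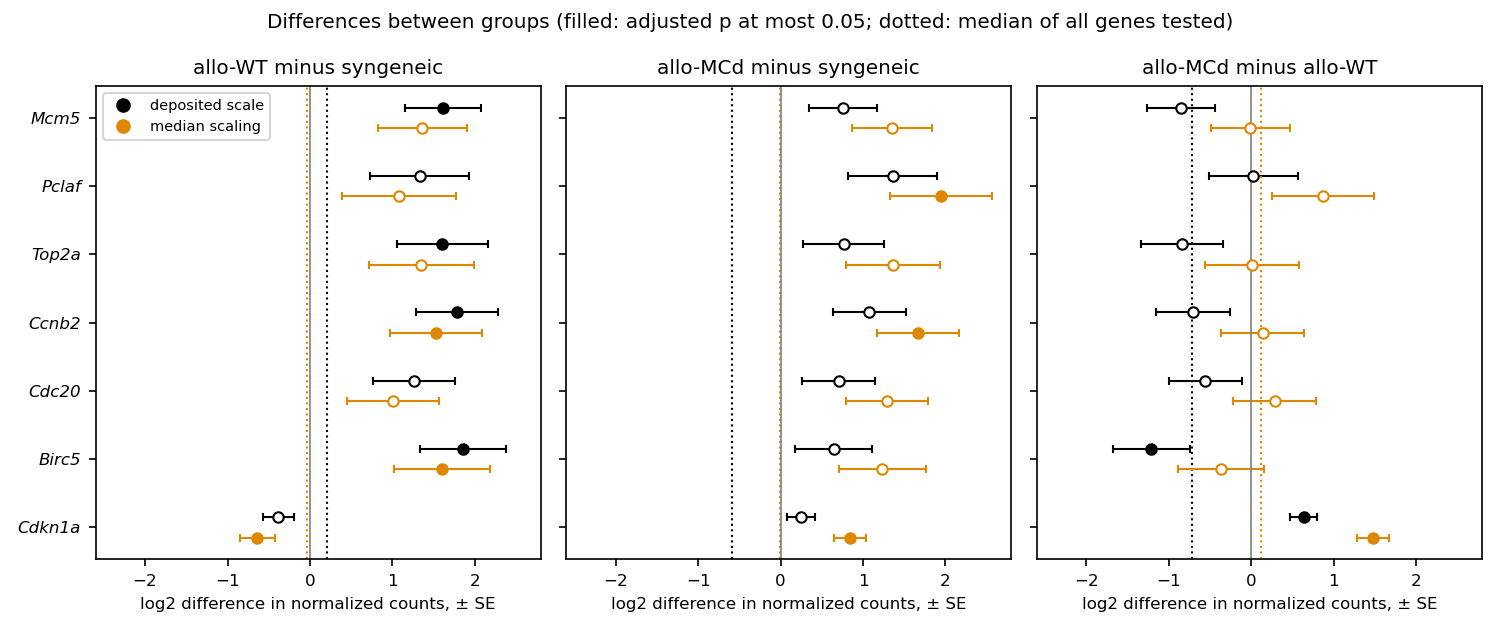
Log2 differences between groups with their SE for the 7 genes, on the deposited scale (black) and under median scaling (orange), filled where the limma adjusted p was at most 0.05, with dotted lines at the median of all genes tested. The 6 genes other than Cdkn1a lie right of the dotted lines in allo-WT minus syngeneic, and Cdkn1a alone is filled on both scales in allo-MCd minus allo-WT.

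The order of the group levels was not the same for all members. On the deposited scale, the mean of Mcm5, Top2a, Ccnb2, Cdc20 and Birc5 was lowest in syngeneic, intermediate in allo-MCd and highest in allo-WT mice. Under median scaling the arithmetic mean in allo-MCd mice lay above that in allo-WT mice for Ccnb2 (436 against 357) and Cdc20 (181 against 129), and below it for Birc5 (239 against 267). For Mcm5 (692 against 602) and Top2a (2045 against 1716) it was also higher, but their log2 differences on that scale were -0.01 and 0.01, so no order is given for them. In the fit on the deposited scale, the neighbours syngeneic and allo-MCd passed the adjusted threshold for none of them, although Ccnb2 had an unadjusted limma p of 0.0327 in 5 against 3 mice. Allo-MCd and allo-WT passed it only for Birc5. For Pclaf the allo-MCd mean was the highest, and on this scale no pair of groups passed the threshold. Cdkn1a ran from allo-WT over syngeneic to allo-MCd, and in this fit only the ends of the order were called, whereas under median scaling both neighbouring pairs were called too.

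The mean of the allo-MCd group described few of its mice. For each of the 6 genes of S phase and mitosis, mice 1, 2 and 4 were the 3 highest and mice 3 and 5 the 2 lowest of the group. Mouse 3 was the lowest for all 6, and the highest was mouse 2 for Pclaf, Ccnb2 and Mcm5 and mouse 4 for Top2a, Cdc20 and Birc5. Mice 3 and 5 were not apart for Pclaf, with 132.23 and 132.38 counts, and under median scaling mouse 5 was the lowest for Pclaf, Birc5 and Top2a. The highest mouse exceeded the lowest 4.30-fold for Pclaf, 3.79-fold for Mcm5, 3.77-fold for Cdc20, 3.64-fold for Birc5, 3.58-fold for Ccnb2 and 3.53-fold for Top2a. For Cdkn1a the same ratio was 1.17, and its highest mouse was mouse 2 and its lowest mouse 5.

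The spread of these genes between allo-MCd mice was among the widest of the panel. The SD of log2 counts was 1.11 for Pclaf, 0.93 for Top2a, 0.90 for Birc5, 0.85 for Mcm5, 0.82 for Cdc20 and 0.81 for Ccnb2, which placed them at ranks 13, 22, 26, 35, 41 and 45 of 698 genes. Only 46 genes, or 6.59%, had an SD of at least 0.8 in this group. Cdkn1a was at the other end, with an SD of 0.10 and rank 667 on the deposited scale, but its SD was 0.26 under median scaling, near the 0.30 of all genes, and 0.16 under quantile normalization. The median SD of the 7 members was 0.85 in allo-MCd, 0.36 in allo-WT and 0.47 in syngeneic mice, and that of all genes tested was 0.39, 0.38 and 0.29. In syngeneic mice Top2a was the widest member (SD 0.82, 3.08-fold between the highest and the lowest mouse) and Cdkn1a the narrowest (SD 0.11). In allo-WT mice Ccnb2 (SD 0.65) and Birc5 (SD 0.62) were the widest, with mouse 1 highest and mouse 3 lowest for both.

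**Figure D3:**
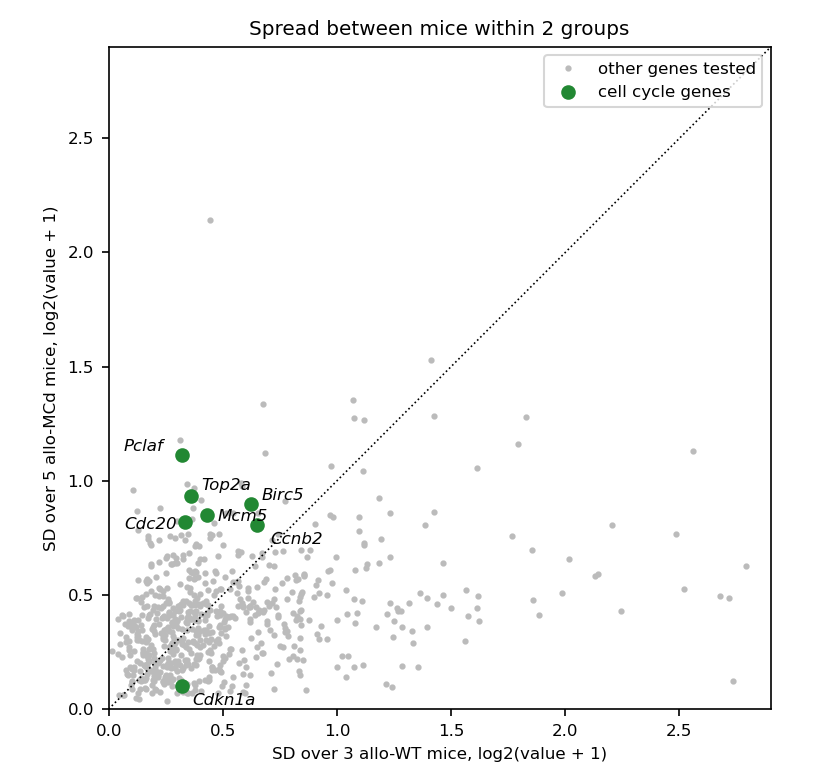
SD over mice of log2(value + 1) for each of the 698 genes tested, in 5 allo-MCd mice (vertical) against 3 allo-WT mice (horizontal), with the 7 cell cycle genes in green and equal spread on the dotted line. All but Cdkn1a lie above the line, as do 42.7% of all genes tested, at 0.81 to 1.11 in allo-MCd, and Cdkn1a lies below it at 0.10.

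The spread was also computed on other scales and with each mouse left out. Under median scaling the median SD of the members in allo-MCd mice was 1.03, against 0.30 for all genes, and under quantile normalization it was 0.97. Without mouse 3 the median SD was 0.63, the lowest of the 5 values with 1 mouse left out, and the narrowest of the 6 then had an SD of 0.44 in place of 0.81, near the 0.39 of all genes. Without mouse 1 the median was 0.92, the highest. The order of the mice was seen in few other genes: 45 of 698 (6.45%), the 6 members included, had mice 1, 2 and 4 all above mice 3 and 5, while 298 (42.7%) had them all below. Under median scaling the first order held for 144 genes (20.6%), all 7 members among them, and the second for 112 (16.0%). This order was singled out after the values were seen.

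The normalization factor and the median gene moved with this order, and the recovered total and the positive control did not. Recovered totals lay between 1018368 and 1130766 counts, with mouse 2 lowest, mouse 5 next at 1062937 and mouse 3 at 1089527. The normalization factors were 0.759, 0.927, 1.03, 0.798 and 1.15 in mice 1 to 5, and the median genes 241, 269, 310.4, 269 and 356, so that mice 3 and 5 had the 2 largest of both. The values of the 6 members were lowest in the mice with the largest factors. The factor multiplies the counts, and mice 3 and 5 were also the 2 lowest for all 6 in the recovered counts. Recovered Pclaf counts were 692, 614, 128, 675 and 115 in mice 1 to 5, and those of Mcm5 767, 734, 174, 736 and 224. Of the positive control, mice 1 to 5 gave 33547, 30967, 30947, 27650 and 29123 counts. The part of the factor in the spread of the 6 genes was not tested.

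Several marker lists were higher in the mice with low cell cycle counts, an order that 42.7% of all genes shared. The summed counts of the adipocyte markers Lpl and Pparg (2 of 3 on the panel) were 4192, 5277, 10498, 4101 and 8363 in allo-MCd mice 1 to 5. The muscle marker Des (1 of 4 on the panel) had 4045, 4137, 9515, 2823 and 6962 counts, and the endothelial pair Cdh5 and Tek (2 of 5 on the panel) 472, 390.3, 946, 397 and 856. All 3 lists were highest in mouse 3, with mouse 5 next. The keratinocyte marker Cdh1 had 4999, 4700, 4652, 5187 and 4660 counts, with mice 3 and 5 lowest by a small margin. Macrophage markers ran 3994, 5874, 5647, 4619 and 7638, and neutrophil markers 734, 1151, 873, 948 and 531. Fibroblast markers ran 34579, 55858, 37788, 35407.5 and 81942, mast cell markers 450, 122, 395, 621 and 100, and eosinophil markers 113, 121, 143, 163 and 197. The macrophage, neutrophil, fibroblast, mast cell and eosinophil lists did not have mice 3 and 5 above mice 1, 2 and 4. Also higher in mice 3 and 5 than in mice 1, 2 and 4 were the sum of 4 dendritic cell markers (173 and 305 against 121 to 145 counts) and the platelet marker Pf4 (451 and 838 against 249 to 396), while the B cell marker Ms4a1 (14.5 and 15.0 against 6.49 to 11.2) was above background in none of the 5. Of the dendritic cell markers, Flt3, Xcr1 and Clec9a followed this order singly. Itgax did not, with 30.0 counts in mouse 3 against 35.7 in mouse 1 and 36.2 in mouse 2. None of the 9 T cell markers of the list was on the panel. Which cells divided, and the part of the tissue sampled in the spread, was not tested.

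**Figure D4:**
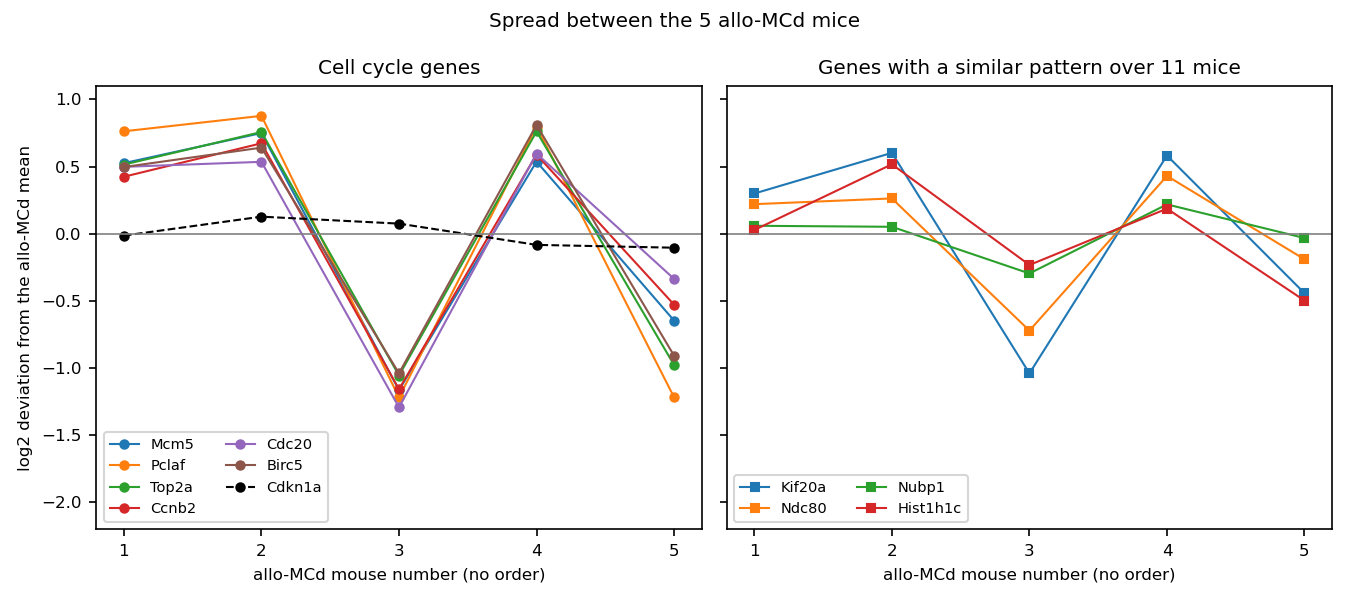
Log2 deviation of each gene from its allo-MCd mean in mice 1 to 5, for the 7 cell cycle genes (left; Cdkn1a dashed) and 4 of the 5 genes with the most similar pattern over all 11 mice (right); lines join the values of 1 gene. The members other than Cdkn1a lie above 0 in mice 1, 2 and 4 and below 0 in mice 3 and 5, and Cdkn1a stays near 0.

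Genes of similar pattern were chosen by their correlation with the members. Of 747 genes ranked by Pearson's r with the mean z-score of the 6 over 11 mice, Kif20a, a kinesin of cytokinesis, came first (r = 0.98, and 0.96 after each group was centred on its mean). Also among the 5 highest were Ndc80, a kinetochore component (0.91 and 0.82), the housekeeping gene Nubp1 (0.89 and 0.76) and Hist1h1c, a linker histone (0.83 and 0.70). These r share the mice and their normalization and are a description. In allo-MCd mice 1 to 5, Kif20a had 349, 431, 137, 425 and 208 counts. It shared the split of mice 1, 2 and 4 from mice 3 and 5. Because it was chosen by its correlation over these same mice, this is no independent support for the split. Nubp1 ran from 224 to 321 counts and was set aside here as a housekeeping gene. Which housekeeping genes the authors normalized to is not given in the sources used here. Ndc80 was low, at 30.0 to 67.8 counts.

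Of a wider list of cell cycle and growth genes, 7 further genes were on the panel, among them Kif20a, Ttk, Myc, Jun, Btg2 and Gadd45b. Between allo-WT and syngeneic mice, where 28.2% of all genes were called higher and 14.9% lower, Kif20a was called higher (1.39, SE 0.44, adjusted p = 0.0235 in limma), and Btg2, an antiproliferative gene induced by p53, was called lower (-1.09, SE 0.32, adjusted p = 0.0157 in limma). The median of the 7 was -0.56. Under median scaling Kif20a lost the call (1.13, adjusted p = 0.0782 in limma), and 0 of the 7 were called higher and 4 lower, beside 24.2% and 27.4% of all genes. Kif20a also lost the call without syngeneic mouse 1 or 3 or allo-WT mouse 1 or 2, and Btg2 without syngeneic mouse 3. Between allo-MCd and allo-WT mice, Btg2 (0.82, SE 0.28, adjusted p = 0.0256 in limma) and Jun, a subunit of the AP-1 factor (0.78, SE 0.25, adjusted p = 0.0190 in limma), were called higher. Neither was called without allo-WT mouse 1, with the mouse number as a block or in the methods' test. Every allo-MCd mouse was above every allo-WT mouse for both, with Btg2 at 1282 to 2290 against 731 to 1260 counts, in a comparison in which 55.9% of all genes did not overlap and 10.9% were called higher. Between allo-MCd and syngeneic mice none was called in limma, and none of the 7 had an unadjusted p under 0.05. The mitotic kinase gene Ttk did not share the pattern: it lay between 209 and 334 counts in allo-MCd mice, highest in mouse 5, and its mean was 390.4 ± 131 (SD, n = 3) in syngeneic against 251 ± 20.2 (SD, n = 3) in allo-WT mice (limma adjusted p = 0.103). Under median scaling Ttk was called in 2 comparisons, at -0.83 for allo-WT minus syngeneic (adjusted p = 0.0335 in limma) and at 0.99 for allo-MCd minus allo-WT (adjusted p = 0.00576 in limma).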

How the data were processed

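RNA from the skin of 11 mice was hybridized to the NanoString panel, each in its own lane. As deposited, the gene values are a linear signal: the authors ran molecule counts through nSolver for normalization. The software version, the housekeeping genes used and the treatment of background are not given in the sources used here. Control probes (6 positive, 8 negative) were deposited as counts before normalization. Whole counts were recovered from 1 factor per mouse, allowing a distance of 0.011 from a whole multiple, and they give the depth. Background was set 2 SD above the mean negative control.

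Groups came from the sample labels. After 18 housekeeping genes were set aside, a gene was tested if 3 or more mice had a value of 20 or higher. The test was limma 3.58.1 in R 4.3.3 with an intensity trend, on log2(value + 1), fitted to the 3 groups jointly without a covariate, Benjamini-Hochberg adjustment over 698 genes and a threshold of 0.05. This scale understates the change of low genes. Two-sided exact permutation tests (scipy 1.17.1) compared mean log2 values of single members, 21 in all. The smallest p that 5 mice against 3 can give in this permutation test is 0.0357, which Cdkn1a had with no overlap. The fit was tested on simulated data. Intervals cover counting error only.

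The members and lists were chosen with earlier results of these data known. All members are named, with the called genes of a wider list of cell cycle genes and, of the 5 genes most correlated with the members of S phase and mitosis, 4, since 1 is not reported here. Upstream sequences came from RefSeq (GRCm38.p6), where 6 members matched by symbol and 1 by synonym. Alternatives were other pseudocounts, filters and scalings, other forms of the fit, the methods' 3-group test, the mouse number as a block and each mouse left out. The study's other assays are not analysed here.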

Additional observations from a re-analysis of the deposited data

How the results depend on the processing

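Of the values of single members under the alternatives, 448 kept their direction and their side of the threshold, 25 lost the call, 22 gained it and 9 changed sign. The Cdkn1a difference between allo-MCd and allo-WT mice kept its call under all 24 alternatives. In that comparison 2 members were called, and 1 was under median scaling, quantile normalization, a fit of only the groups compared and the methods' test. With 1 mouse left out the number ran from 1 to 3. The Ccnb2 difference became 0.14 under median scaling and 0.19 under quantile normalization, that of Cdc20 0.28 and 0.48, and that of Top2a 0.0071 under median scaling. The Pclaf difference, 0.03 with all mice, ran from -0.19 to 0.33 with 1 mouse left out and was 0.87 under both scalings. Between allo-WT and syngeneic mice, 4 members were called, 0 under the methods' test (3 at an unadjusted p under 0.05) 6 in a fit of only the groups compared and 1 to 5 with 1 mouse left out. Between allo-MCd and syngeneic mice, 0 were called in limma, 3 under median scaling, 4 under quantile normalization and 0 to 4 with 1 mouse left out.

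Of the 7 other cell cycle genes, 5, 4 and 3 were called under both median scaling and quantile normalization, in allo-MCd against allo-WT, allo-WT against syngeneic and allo-MCd against syngeneic mice, in place of 2, 2 and 0. Those in allo-WT against syngeneic mice were all lower, and the others all higher, where median scaling called 191 of 698 genes lower and, in the comparisons with allo-MCd mice, 249 and 99 higher. The methods' test called 0 in the first and 0 in the second comparison. With 1 mouse left out the numbers ran from 0 to 2, from 0 to 4 and from 0 to 2.

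Mouse numbers were fitted as a replicate block, although same-numbered mice shared only a number: of 9 pairs, 3 deviated together with r above 0.1, over a range from -0.11 to 0.21. With the replicate block, 5 members were called in allo-WT against syngeneic mice, 1 in allo-MCd against syngeneic mice, and 0 of the other cell cycle genes between allo-MCd and allo-WT mice. The median SD within allo-MCd mice lay between 0.63 and 1.03 over all settings. The planned count tests were not run, and voom on the recovered counts, chosen after seeing the data, gave 2, 4 and 0 called members. The cause of these changes was not tested.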
